A study of Mus musculus with 8 samples.

Results

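The genes described here are 10 members of the Notch pathway in purified mouse brain vessels: the receptor genes Notch1, Notch3 and Notch4, the ligand genes Dll4, Jag1 and Jag2, and the target genes Hey1, Hey2, Heyl and Hes1. They were chosen by gene symbol, out of 22180 genes with a symbol of their own on the array, and each was read from its transcript cluster (the probe set for 1 transcript unit) with the highest mean over the 8 arrays. All 10 had a cluster, and all lay above the background floor of 4.68 on the log2 scale.

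A pair of preparations of brain vessels from 2-month-old male C57Bl6 mice were compared by array hybridization (Affymetrix Mouse Gene 2.0). Digested vessels (4 arrays) came from brain incubated warm with DNAseI and Liberase DL in place of homogenization. The enzymes open part of the basal lamina, which anchors the endfeet of astrocytes on the vessel wall. The tissue label of all 8 samples reads as mechanical extraction, whereas the study's methods have digestion in place of homogenization, which is followed here. Undigested vessels (4 arrays) came from mechanically homogenized brain. Each array held vessels pooled from 4 mice, and the comparison was made to find transcripts that leave the vessels together with the endfeet. Removal of endfeet and the warm enzymatic dissociation cannot be told apart in this design. Levels are given on the log2 scale, and a positive difference means a higher level in digested vessels. Of 28 endothelial marker genes 26 had a cluster, and all 26 lay above the floor.

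Notch receptors are membrane proteins that are cut when a ligand on a neighbouring cell pulls on them. The freed intracellular part enters the nucleus, joins the DNA-binding protein Rbpj and switches on target genes, among them the Hey and Hes families of transcriptional repressors. In blood vessels, Notch1, Notch4 and Dll4 are known from endothelial cells, where they set arterial identity, whereas Notch3 is known from the mural cells around them, smooth muscle cells and pericytes. Jag1 is known as the ligand through which endothelial cells signal to mural cells, and Hey2 and Heyl are also expressed in smooth muscle. The arrays measure mixed RNA, so fewer cells of a type and less RNA per cell cannot be told apart.

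Endothelial receptor genes were lower and 1 target gene was higher after digestion, all by less than 2-fold. Notch1 fell 1.35-fold and Notch4 fell 1.33-fold, whereas Hey2 was raised 1.49-fold. Of 20 alternative fits, Notch1 kept its call in 12, Notch4 in 7 and Hey2 in 13. The methods' t-test called 0 members after adjustment. With arrays centred on endothelial marker genes, Notch1 and Notch4 stood at 0.06 and 0.08, not past the test, and Hey2 stayed positive. Such centring adds the same amount to the difference of every cluster, so which signs turned followed from the differences as deposited. It left 16015 of all 27658 clusters called raised. The other 7 genes, Notch3, Dll4, Jag1, Jag2, Hey1, Heyl and Hes1, did not pass the test. With limma and Benjamini-Hochberg adjustment over all 27658 clusters tested, 2 of the 10 members were called lowered, where 10.2% of all clusters were, and 1 was called raised, where 11.1% of all clusters were. In either direction 21.2% of clusters were called, so the 3 calls among 10 members lie near the background and are no result about the pathway. None of the 10 changed at least 2-fold, a change found in 2.16% of all clusters.

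**Figure D1:**
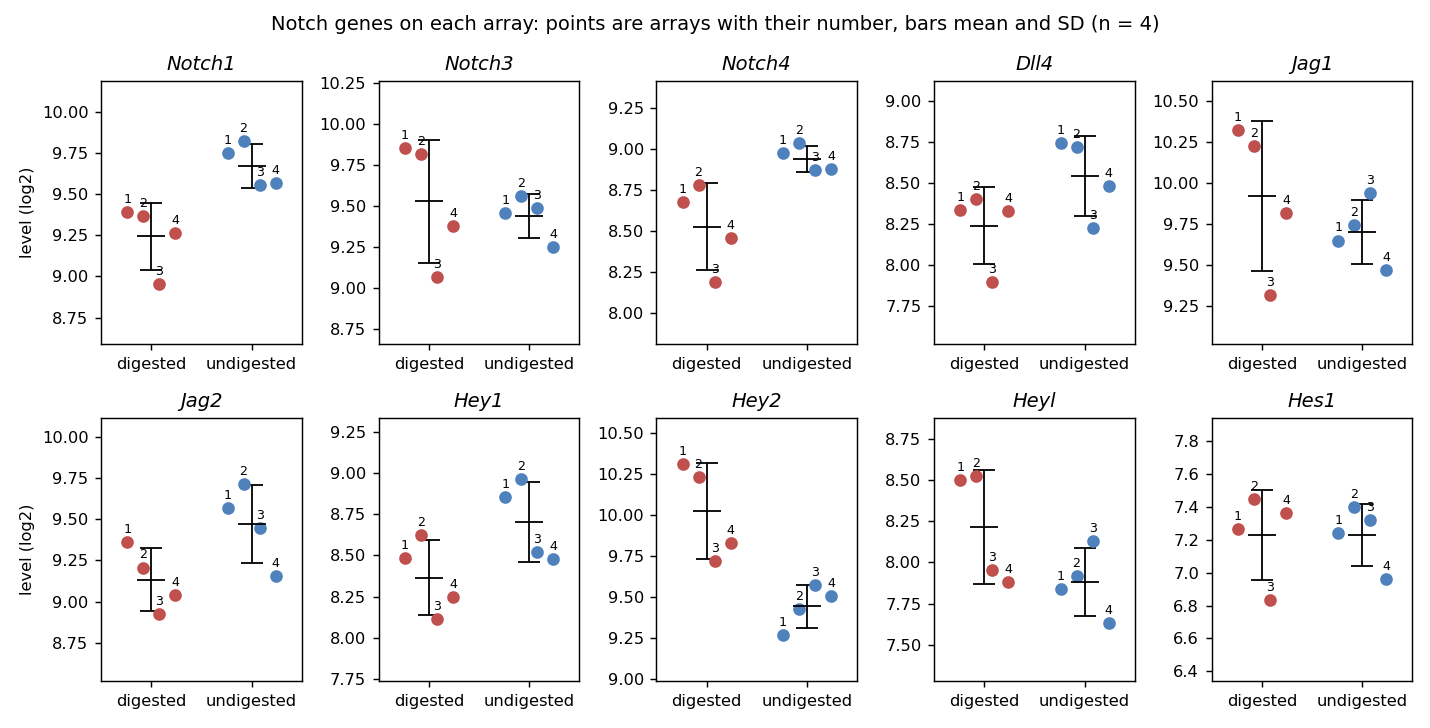
Level (log2, vertical axes of equal span) of the 10 Notch genes on 4 digested and 4 undigested arrays. Points are arrays with their numbers and bars are mean and SD. The groups do not overlap for Notch1, Notch4 and Hey2, and digested array 3 is the lowest digested array in 9 of the 10 panels.

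Among the receptor genes, Notch1 had 9.39, 9.37, 8.95 and 9.26 on digested arrays 1 to 4, against 9.75, 9.82, 9.55 and 9.57 on undigested arrays 1 to 4. Every digested array thus lay below every undigested one, a pattern that 12.5% of all clusters showed. The means were 9.24 ± 0.20 in digested and 9.67 ± 0.13 in undigested vessels (SD, n = 4 each), a difference of -0.43 (SE 0.12, limma adjusted p = 0.0303). The call was lost without undigested array 1 (-0.40), undigested array 2 (-0.38), digested array 3 (-0.33) or digested array 4 (-0.44), and with arrays centred on their median (-0.34).

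Notch4, a receptor gene largely restricted to endothelial cells, had 8.68, 8.78, 8.19 and 8.46 on the digested arrays, against 8.98, 9.03, 8.87 and 8.88 on the undigested ones. Again the groups did not overlap, and the undigested arrays lay within a narrow band (SD 0.08, against 0.26 in digested vessels). Its difference was -0.41 (SE 0.13, limma adjusted p = 0.0476), just past the threshold, and of the 8 fits with 1 array left out only that without digested array 2 kept the call (-0.50), the other 7 giving adjusted p values up to 0.113.

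Notch3, the mural receptor gene whose human counterpart is mutated in the small vessel disease CADASIL, behaved differently from both. It had 9.85, 9.82, 9.07 and 9.38 in digested vessels, against 9.46, 9.56, 9.49 and 9.25 in undigested vessels. Digested arrays 1 and 2 stood above all undigested arrays and digested array 3 below all of them, so the groups overlapped on both sides. The difference was 0.09 (SE 0.17, 95% interval -0.30 to 0.48, limma adjusted p = 0.752), and without digested array 1 or 2 it was -0.02 or -0.01. Notch2, the remaining receptor gene, was listed with the pathway genes below and differed by 0.13 (SE 0.16, adjusted p = 0.584).

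Of the ligand genes none passed the test. Dll4, the arterial and tip cell ligand, had 8.34, 8.40, 7.89 and 8.33 in digested vessels, against 8.74, 8.72, 8.22 and 8.48 in undigested vessels. Undigested array 3 lay below 3 of the digested arrays, and the difference was -0.30 (SE 0.15, limma adjusted p = 0.185). A second, dimmer cluster annotated to Dll4 together with Gm14207 differed by -0.08 (SE 0.14, adjusted p = 0.735).

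Jag2 had 9.36, 9.21, 8.92 and 9.04 in digested vessels, against 9.57, 9.71, 9.45 and 9.16 in undigested vessels. Only undigested array 4 reached into the digested range, and the difference of -0.34 (SE 0.14, limma adjusted p = 0.115) passed the test without that array (-0.44, adjusted p = 0.0459). Jag1 ran the other way, with 10.32, 10.22, 9.32 and 9.82 in digested vessels, against 9.65, 9.75, 9.94 and 9.47 in undigested vessels. Its digested arrays spread more than those of any other member (SD 0.46, against 0.20 in undigested vessels), and digested array 3 was the lowest of all 8. The difference was 0.22 (SE 0.21, 95% interval -0.25 to 0.69, limma adjusted p = 0.499).

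The 3 Hey genes, whose proteins are basic helix-loop-helix repressors, did not share a sign. Hey2 was the only member called raised. It had 10.31, 10.23, 9.72 and 9.83 in digested vessels, against 9.27, 9.43, 9.57 and 9.51 in undigested vessels. Each digested array lay above each undigested one, which was seen in 13.5% of all clusters, but the lowest digested array (9.72) and the highest undigested array (9.57) lay close together. The means were 10.02 ± 0.29 in digested and 9.44 ± 0.13 in undigested vessels (SD, n = 4 each), a difference of 0.58 (SE 0.14, limma adjusted p = 0.0215). The call was lost without undigested array 1 (0.52), undigested array 2 (0.57), digested array 1 (0.48) or digested array 2 (0.51), with adjusted p between 0.0517 and 0.0601, and kept without any other single array.

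Hey1, an arterial endothelial target of Notch, had 8.48, 8.62, 8.11 and 8.25 in digested vessels, against 8.86, 8.96, 8.52 and 8.48 in undigested vessels. Arrays 1 and 2 exceeded arrays 3 and 4 in both preparations, which made the groups overlap. The difference was -0.34 (SE 0.15, limma adjusted p = 0.139). Heyl, known from smooth muscle and pericytes, had 8.50, 8.53, 7.96 and 7.88 in digested vessels, against 7.84, 7.92, 8.13 and 7.63 in undigested vessels. Only digested arrays 1 and 2 lay above the undigested range, and the difference was 0.34 (SE 0.17, limma adjusted p = 0.202).

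Hes1, a broadly expressed repressor and Notch target, had nearly the same mean in both preparations. It had 7.27, 7.45, 6.84 and 7.37 in digested vessels, against 7.24, 7.40, 7.32 and 6.96 in undigested vessels. The difference was -0.001 (SE 0.15, 95% interval -0.34 to 0.33, limma adjusted p = 0.996). Its sign turned with arrays centred on their median (0.09) and without digested array 3 (0.13), neither past the test. It also turned without undigested array 1 (0.002), 2 (0.05) or 3 (0.03), or without 1 and 2 together (0.09), none past the test. With arrays centred on endothelial genes it turned as well (0.49, past the test).

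Promoter sequence was looked at because Hey2 was the target gene that passed the test. The sequences, from RefSeq on build GRCm38.p6, run over 250 bases before and 50 bases from the transcription start, and 7 of the 10 members had one (Notch1, Notch3, Notch4, Dll4, Jag1, Jag2 and Hey2). The letters searched on both strands were those of the high-affinity Rbpj motif, CGTGGGAA, and its core TGGGAA, which lies within it. Hey1, Heyl and Hes1 had no sequence, so Hey2 was the only target gene among the members that could be searched. Of the 7 promoters only that of Hey2 held either, and it held CGTGGGAA in 2 places, once on each strand. Hes5, a target gene of the same pathway, is shown beside it, because its promoter held the related form TGTGGGAA in 2 places, likewise once on each strand. The windows below are 30 bases on the strand of the gene, 5′ to 3′, with the motif in capitals. TTCCCACG and TTCCCACA are the motifs read on the other strand. The first Hey2 window is at chr10:30842972-30843001 (gene on the minus strand), with TTCCCACG starting 207 bases before the transcription start. The second is at chr10:30842769-30842798, with the GTGGGAA part of the motif starting 4 bases before the transcription start. The Hes5 windows are at chr4:154960686-154960715 and chr4:154960829-154960858 (plus strand). In the first, TTCCCACA starts 226 bases before the start, and in the second the GTGGGAA part of the motif starts 83 bases before it.
Hey2, first window: gcgcggtggcaTTCCCACGcctctgccaac
Hey2, second window: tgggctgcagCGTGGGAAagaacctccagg
Hes5, first window: gggcgagcgcgTTCCCACAgcccggacatt
Hes5, second window: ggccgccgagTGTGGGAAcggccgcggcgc

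CGTGGGAA occurred in 0.734% of 32851 promoters of the same length and 2 or more times in 0.0122% of them, or 4 promoters. TGTGGGAA occurred in 1.86% and 2 or more times in 0.0457%, while the core TGGGAA occurred in 25.6%. These are matches of letters, and binding was not measured. Hes5 itself differed by 0.16 (SE 0.14, adjusted p = 0.47), so of these 2 genes with a pair of motifs Hey2 passed the test and Hes5 did not. Among the other pathway genes, Lfng also held CGTGGGAA, in 1 place, and differed by -0.10 (limma adjusted p = 0.653). Hes7 (0.31, limma adjusted p = 0.102) and Psen2 (0.03, limma adjusted p = 0.825) each held TGTGGGAA in 1 place.

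Marker genes of vessel cells also differed between the preparations. Of 26 measured endothelial genes, 13 fell and 0 rose, with a median difference of -0.43, beside -0.43 to -0.30 for Notch1, Notch4, Dll4, Jag2 and Hey1. Smooth muscle genes had a median of 0.52 (4 of 18 rose and 1 fell), beside 0.58 for Hey2 and 0.34 for Heyl. The members left were Jag1, the ligand gene known from endothelial cells (0.22), the mural receptor gene Notch3 (0.09) and Hes1 (-0.001). Jag1 thus had the opposite sign to the endothelial median, and Notch3 lay below the smooth muscle median. Pericyte genes had a median of -0.81 (9 of 14 fell and 0 rose), lower than the difference of any member. Of 18 arterial endothelial genes 3 fell and 1 rose, with a median of -0.07, and of 12 venous ones 2 fell and 0 rose, with a median of -0.38. The arterial list mean was 8.40 to 8.90 in digested and 8.63 to 8.87 in undigested vessels. Over all clusters the median was -0.02. No member belongs to these lists, and the share of the marker shifts in the members' differences was not tested.

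**Figure D2:**
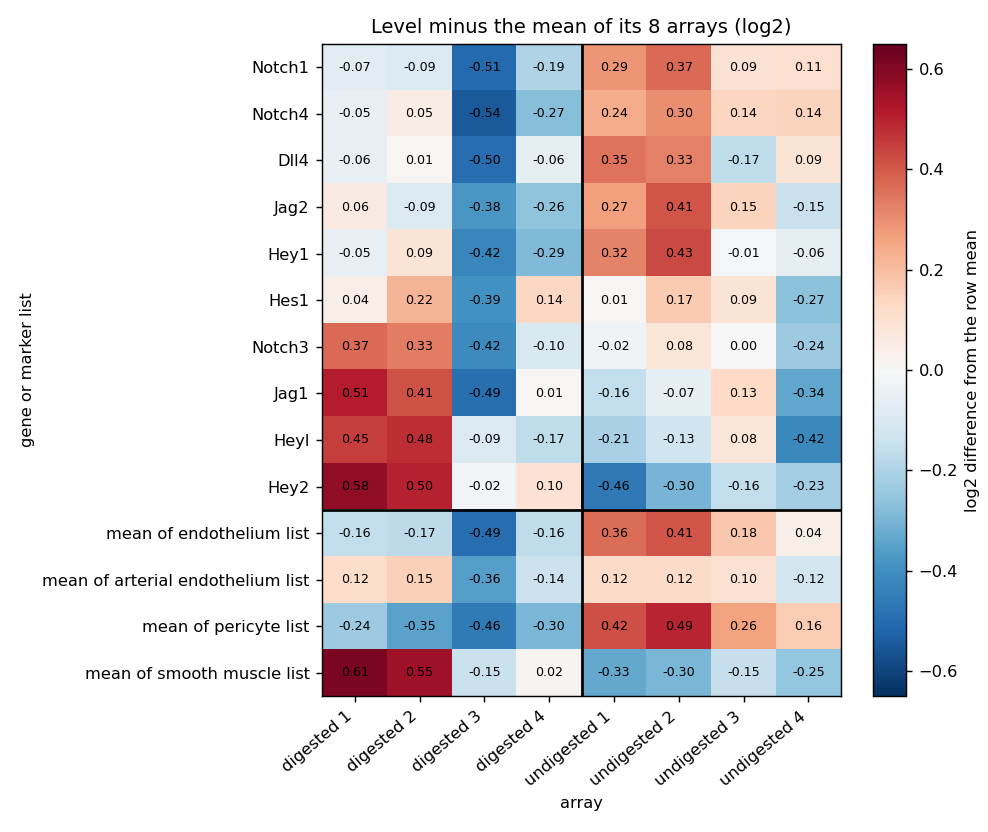
Level of each Notch gene, and mean level of 4 marker lists, minus the mean over the 8 arrays of the same row (log2, colour and number), with digested arrays left of undigested ones. Hey2, Heyl, Jag1 and Notch3 are highest on digested arrays 1 and 2, as is the smooth muscle list mean, and the endothelium list mean is lowest on digested array 3. The arterial endothelium list mean is also higher on digested arrays 1 and 2 than on digested arrays 3 and 4.

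Array by array, the endothelium list mean was 9.18 to 9.52 in digested and 9.71 to 10.08 in undigested vessels, and the smooth muscle list mean was 9.32 to 10.08 in digested and 9.13 to 9.31 in undigested vessels. The smooth muscle mean was 10.08, 10.02, 9.32 and 9.48 on digested arrays 1 to 4, so digested arrays 1 and 2 stood apart from 3 and 4. Hey2, Heyl, Jag1 and Notch3 were likewise highest on digested arrays 1 and 2. The step was not particular to smooth muscle genes, as the arterial endothelium list mean was 8.87, 8.90, 8.40 and 8.61 on digested arrays 1 to 4. The pericyte list mean was 8.12 to 8.34 in digested and 8.74 to 9.08 in undigested vessels, with no such step between the digested arrays.

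Set against the endothelium list mean of the same array, Notch1, Notch4, Dll4, Jag2 and Hey1 overlapped between the preparations, and the remaining 5 did not. Notch1 was at -0.13, -0.14, -0.23 and -0.25 relative to that mean on the digested arrays, against -0.29, -0.26, -0.30 and -0.15 on the undigested ones, and the groups overlapped. On this scale the differences of Notch1, Notch4, Dll4, Jag2 and Hey1 were 0.06, 0.08, 0.19, 0.15 and 0.15, none past the test. Hey2 was at 0.79, 0.73, 0.54 and 0.32 in digested vessels, against -0.77, -0.66, -0.28 and -0.21 in undigested vessels. Its difference relative to the list was 1.07 (SE 0.17, limma adjusted p = 0.000479), followed by Heyl (0.83), Jag1 (0.71), Notch3 (0.58) and Hes1 (0.49), all past the test. These values are to be read against a median of all clusters of 0.47 on the same scale, which the 0.49 of Hes1 hardly exceeded. With this centring 16015 of all 27658 clusters were called raised, so the calls of these members are no result about the pathway. The share of all clusters without overlap was not counted on this scale.

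Subtracting the smooth muscle list mean adds the same amount to the difference of every member, so their order was fixed in advance. Hey2 was the one nearest to 0 on this scale. Hey2 was at 0.23, 0.22, 0.40 and 0.35 above that list's mean on the digested arrays, against 0.14, 0.26, 0.26 and 0.29 on the undigested ones, a difference of 0.06. Heyl (-0.18) and Jag1 (-0.30) also overlapped between the groups. Notch3 was lower on every digested array (-0.23, -0.20, -0.25 and -0.10) than on every undigested one (0.33, 0.39, 0.17 and 0.03), a difference of -0.43. Notch1, Notch4, Dll4, Jag2 and Hey1 were lower relative to smooth muscle genes by -0.95 to -0.82, without overlap. Hes1, at -0.52, overlapped. These values are given as descriptions, with no test, and the share of all clusters without overlap was not counted on this scale.

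**Figure D3:**
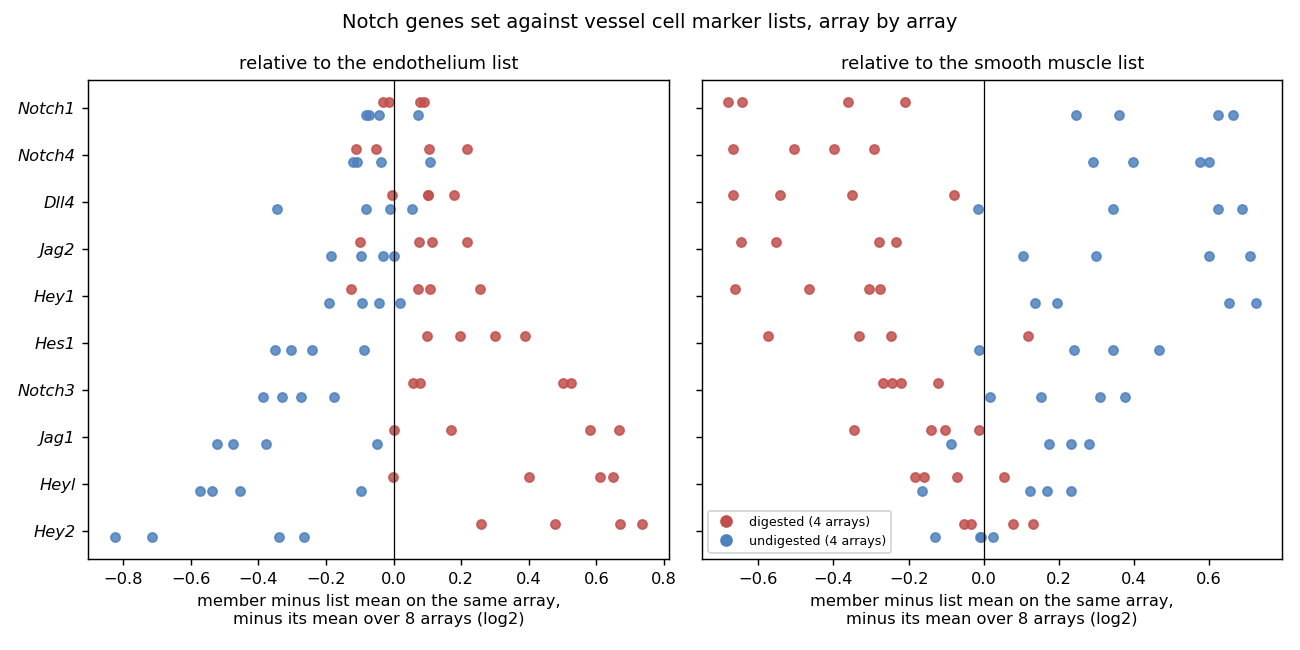
Each member's level minus the mean of the endothelium list (left) or the smooth muscle list (right) on the same array, shown as distance from its own mean over 8 arrays (log2). Red points are the 4 digested and blue points the 4 undigested arrays. Notch1, Notch4, Dll4, Jag2 and Hey1 overlap between the preparations on the left and Hey2, Heyl, Jag1 and Hes1 on the right. The share of all clusters without overlap was not counted on these scales.

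Endothelial centring adds the same amount to the difference of every cluster, so which members changed sign followed from their differences as deposited. It turned the sign of Notch1, Notch4, Dll4, Jag2, Hey1 and Hes1, while Hey2, Heyl, Jag1 and Notch3 were positive under each of the 4 scalings. Centred on the array median, Hey2 was at 0.66 (adjusted p = 0.0109), and Notch1 (-0.34) and Notch4 (-0.33) kept their sign without passing. A second quantile normalization left all 3 calls in place. Over all clusters, lowered calls made up 47.9% of the total as deposited, 29.7% after median centring and 2.24% after endothelial centring.

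**Figure D4:**
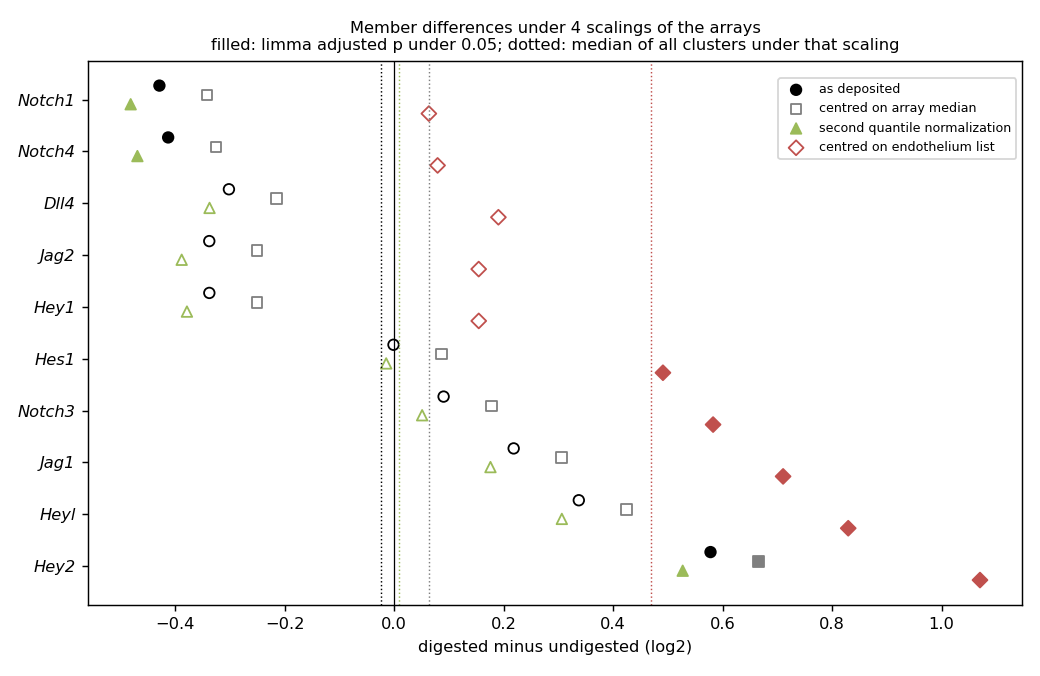
Difference digested minus undigested (log2) of the 10 members under 4 scalings of the arrays. Filled symbols passed an adjusted p of 0.05 and dotted lines mark the median of all clusters under the same scaling. With endothelial centring the upper 5 genes lie at 0.06 to 0.19, where they lie at -0.43 to -0.30 as deposited, and Hes1 also takes the other sign.

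Some array effects ran through the members. Digested array 3 was the lowest digested array for 9 of the 10 genes (Heyl was lowest on digested array 4), where this was so for 27.5% of all clusters. The highest digested value came from array 1 or 2 for all 10 genes, where 47.6% of all clusters had it there. The SD was larger in digested vessels for 7 of the 10, with Dll4, Jag2 and Hey1 as the exceptions, against 49.8% of all clusters. Members share their arrays, so these counts are not independent observations.

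The profile most like that of Notch1 over the 8 arrays, among 16216 other genes and by the root mean square difference of centred log2 values, was that of Utrn (0.04), the dystrophin relative utrophin, followed by Dlc1, a GTPase-activating protein gene, and Ece1, the endothelin-converting enzyme gene (both 0.05). Utrn was also the nearest to Notch4 (0.05), before Fry and Cyth3, a guanine nucleotide exchange factor gene (both 0.06). For Hey2 the nearest were Actn1 (0.05), the gene for the actin crosslinker alpha-actinin 1, Plekho1 (0.06) and Aldh18a1 (0.06), an enzyme gene of proline synthesis. Among the members themselves Notch1 and Notch4 were nearest to each other (0.07), while Notch1 and Hey2 were the farthest apart (0.53).

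Beyond the 10 members, 45 of 49 further genes of the pathway were measured above the floor. The ligand gene Dll3 lay below the floor, and the other 3 were not analysed here. Of these, 3 were lowered (6.67%, against 10.2% of all clusters), 6 were raised (13.3%, against 11.1%) and the other 36 stayed short of the threshold, with a median difference of 0.06. After centring on the endothelium list 34 were called raised and 0 lowered, where 16015 of all 27658 clusters were called raised and 367 lowered.

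Receptor cleavage takes place first by the surface protease Adam10 and then inside the membrane by gamma-secretase. Adam10 fell 1.24-fold (-0.31, SE 0.08, limma adjusted p = 0.0226), with 9.48, 9.49, 9.48 and 9.55 in digested vessels against 9.89, 9.89, 9.79 and 9.68 in undigested vessels, but its sign turned (0.18, not past the test) with endothelial centring. The call was also lost with median centring (-0.22) and without undigested array 1 (-0.28), undigested array 2 (-0.28), digested array 1 (-0.30) or digested array 3 (-0.30). Of the 6 gamma-secretase subunit genes measured, Ncstn and Psenen rose and the other 4 did not pass the test. Ncstn, for nicastrin, had 9.77, 9.72, 9.73 and 9.82 in digested vessels, against 9.22, 9.17, 9.41 and 9.28 in undigested vessels. It rose 1.41-fold (0.49, SE 0.08, limma adjusted p = 0.00386) and passed in all 20 alternatives.

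Psenen, for the subunit Pen-2 and the most abundant gene of this group, rose 1.27-fold (0.35, SE 0.08, limma adjusted p = 0.0128), with 10.93, 10.95, 10.89 and 10.98 in digested vessels against 10.49, 10.59, 10.71 and 10.55 in undigested vessels. Both Ncstn and Psenen were free of overlap between the preparations. The Aph1 genes differed by 0.08 (Aph1a), 0.23 (Aph1b) and 0.64 (Aph1c), and Psen2 by 0.03, none past the test. Aph1b and Aph1c are close copies whose probes could share signal, and Aph1c varied widely within the undigested group (8.04, 8.09, 9.01 and 8.84).

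In the nuclear complex, Rbpj itself differed by -0.19 (SE 0.09, adjusted p = 0.163) and the coactivator genes Maml1, Maml2 and Maml3 by 0.08, -0.14 and 0.16. Kat2b, a histone acetyltransferase gene, rose 1.41-fold (0.50, SE 0.09, limma adjusted p = 0.00639) and passed in all 20 alternatives. Snw1, an Rbpj cofactor and splicing factor gene, rose 1.28-fold (adjusted p = 0.0326). Its call was absent from 9 alternatives, among them the fits without undigested array 1, 2 or 4 or digested array 1, 3 or 4. The corepressor gene Spen fell 1.22-fold (adjusted p = 0.0326), but 12 of the 20 alternatives did not call it, among them every fit without 1 array except that without digested array 2, and endothelial centring turned its sign (0.20). Ep300, the most abundant of this group, differed by -0.10 (adjusted p = 0.367).

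Among genes for endocytosis and turnover, Neurl1b, an E3 ubiquitin ligase gene acting on ligands, rose 1.73-fold (0.79, SE 0.18, limma adjusted p = 0.0148), the largest difference of any pathway gene measured. It had 7.29, 7.14, 6.54 and 6.76 in digested vessels, against 5.99, 6.16, 6.47 and 5.97 in undigested vessels, so digested array 3 and undigested array 3 nearly touched. Dtx4, of the Deltex ubiquitin ligase family, fell 1.30-fold (-0.38, SE 0.10, adjusted p = 0.0254), with the sign turned (0.11) after endothelial centring. Its call was lost with median centring (-0.29) and without undigested array 2 (-0.33), undigested array 4 (-0.37) or digested array 1 (-0.31). Numb, the Notch inhibitor, differed by 0.11 and Mib1, the ligand ubiquitin ligase, by 0.01. Dtx3 was the most abundant of the group (-0.12, adjusted p = 0.343).

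Hes6, of the Hes family but known as an inhibitor of Hes1 rather than as a classical Notch target, was the pathway gene with the smallest p. It had 6.52, 6.54, 6.59 and 6.75 in digested vessels, against 5.98, 5.71, 5.78 and 5.98 in undigested vessels. The rise was 1.67-fold (0.74, SE 0.10, limma adjusted p = 0.00155) and passed in all 20 alternatives. Nrarp, a feedback target of Notch, differed by -0.10 (SE 0.10, adjusted p = 0.519), and Nrip2, the most abundant of the other targets, by 0.41 (SE 0.15, adjusted p = 0.081).

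The Fringe and other glycosylation genes (Pofut1, Poglut1, Lfng, Mfng, Rfng), which tune the choice of ligand, ranged from -0.24 to 0.08, none past the test, and the receptors and ligands outside the 10 members (Notch2, Dll1, Dlk1 and Dlk2) ranged from -0.15 to 0.13, also with none past it. Of these receptors and ligands Notch2 was the most abundant, and of the glycosylation genes Lfng (-0.10, adjusted p = 0.653).

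**Figure D5:**
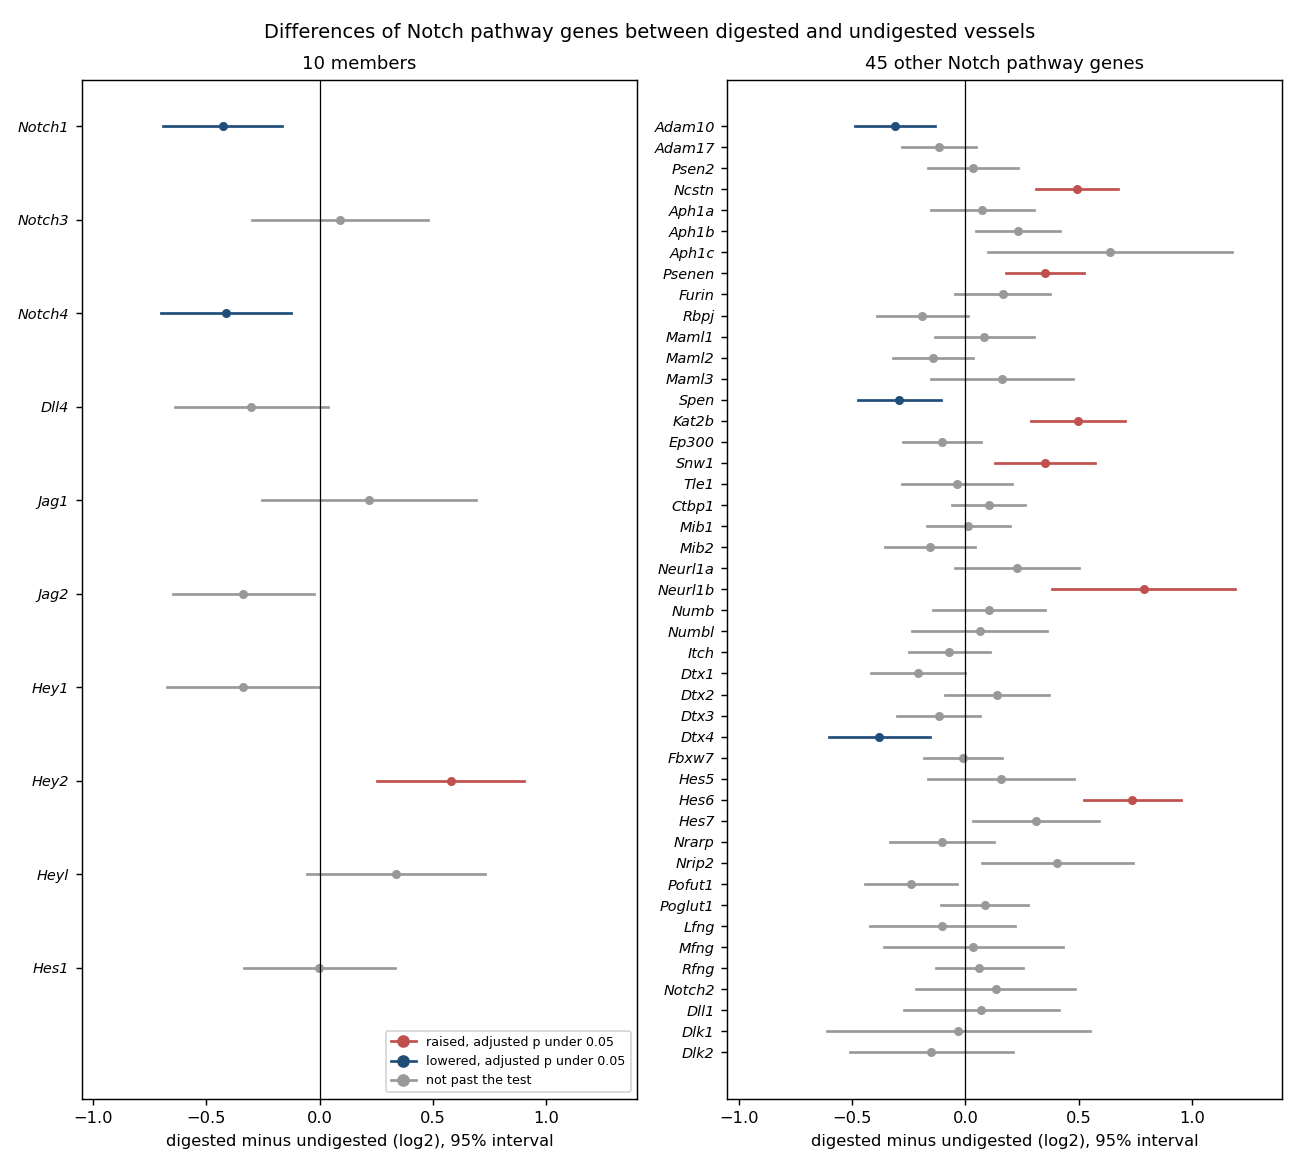
Difference digested minus undigested (log2) with its 95% interval from limma, for the 10 members (left) and the 45 other pathway genes (right). Red marks genes raised and blue genes lowered at an adjusted p of 0.05 as deposited, and all blue genes take the other sign with endothelial centring. Hey2, at 0.58, and Neurl1b, at 0.79, reach highest on their sides.

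Markers of other cells in the preparations moved as well. Astrocyte genes fell most (16 of 20 fell and 1 rose, with a list mean of 7.19 to 7.56 in digested and 8.25 to 8.64 in undigested vessels), choroid plexus epithelium genes rose (13 of 17, list mean 10.07 to 10.68 in digested and 8.71 to 9.61 in undigested vessels), and 4 of 12 immediate early genes rose. Their part in the differences of Hes1, Hes6 or other pathway genes that these cells also express was not tested. Arrays of a group correlated at r = 0.976 to 0.982 (digested) and 0.972 to 0.986 (undigested) over the clusters tested, and at 0.946 to 0.962 between the groups.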

How the data were processed

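Each of 4 digested and 4 undigested vessel pools was measured on 1 Affymetrix Mouse Gene 2.0 array. The authors name Expression Console, EASANA with FAST DB annotation, antigenomic background correction and quantile normalization. In the table they deposited, each transcript cluster has a log2 value for every array. Which of these steps its values had, which program wrote it and the genome build are not given in the sources used here, and the log2 scale was read from the values.

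Symbols came from the platform table, with 23328 Entrez identifiers matched to RefSeq (GRCm38.p6) and 0 symbols changed. Of 41345 clusters, 23521 had 1 symbol, 1820 several and 16004 none. The floor was the 90th percentile of the means of 1400 olfactory and vomeronasal receptor clusters, and 27658 clusters above it entered the limma test (version 3.58.1 under R 4.3.3, eBayes after lmFit), which was two-sided and had no further term. Other cluster choices, filters, scalings, variance models, the methods' t-test, a block on the array number and arrays left out were tried. The number of arrays limits the precision, and p-values measure the spread between pools of mice. Steps were tested on simulated data.

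Members and lists were chosen with earlier results of these data known. Named genes were the 10 members, pathway genes past the test, the most abundant gene of each pathway list and the 3 nearest profiles of each member past the test. Genes named outside this rule were chosen after their values were seen. Python 3.11.15 with pandas 2.3.3 and matplotlib 3.10.9 was used for sequences and figures.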

Additional observations from a re-analysis of the deposited data

Results flagged for a closer look

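In 5 of 110 groups of 4 arrays (10 members and 45 other pathway genes, in both preparations) 1 array lay far from the other 3, where chance gives about 1 in 20. Dll4 had 7.89 (log2) on digested array 3, with the lowest of the others at 8.33. Ep300 had 9.48 on digested array 3, with the others at 9.63 to 9.65. Adam10 had 9.55 on digested array 4, with the others at 9.48 to 9.49. Dtx4 had 6.69 on digested array 1, with the lowest of the others at 6.97. Dtx1 had 7.32 on undigested array 4, with the others at 7.50 to 7.53.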

How the results depend on the processing

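Of the 20 alternatives, Hey2 kept its sign in all and its call in 13, Notch1 its call in 12 and Notch4 in 7. With arrays centred on their median, 0 members and 0 other pathway genes were lowered, and Hes1 was at 0.0858. With arrays centred on the endothelium list, 0 members were lowered and 5 raised, 0 and 34 other pathway genes, and 367 and 16015 of all clusters, and Notch1 (0.0632), Notch4 (0.0791), Dll4 (0.19), Jag2 (0.15), Hey1 (0.15), Hes1 (0.49), Adam10 (0.18), Spen (0.20) and Dtx4 (0.11) took the other sign. Without a filter on low values 1 member was lowered. The methods' t-test gave 0 members lowered or raised after adjustment. At the methods' unadjusted p it gave 3 members, where 9159 of all 27658 clusters passed. Once their fold threshold was added it gave 0 members and 603 of all clusters. With the array number as a replicate block, 3 members were lowered (Hey1 in addition) and 0 raised, and 1 other pathway gene was lowered. Arrays of the same number correlated at 0.06, 0.18, -0.04 and 0.18 after removal of group means, which does not pair them. For digested arrays 1 to 4 the undigested array with the highest correlation was number 1, 2, 4 and 3. Whether arrays 1 and 2 of both preparations were handled apart from arrays 3 and 4 was not tested. With 1 array left out, 0 to 2 members were lowered and 0 to 1 raised, 0 to 3 other pathway genes were lowered and 5 to 7 raised, and over all clusters 2001 to 2736 were lowered and 2028 to 2874 raised. Hes1 then ranged from -0.0905 to 0.13 and Notch3 from -0.0173 to 0.24. Without undigested arrays 1 and 2 together, 0 members were lowered or raised, 0 other pathway genes were lowered and 3 raised, 1407 of all clusters were lowered and 1008 raised, and Hes1 was at 0.0874. Without undigested arrays 3 and 4, 1 other pathway gene was lowered. Fewer arrays in a fit give fewer calls by construction, and other causes were not tested.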
